A study of Mus musculus with 6 samples.

Results

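The CCR4-NOT scaffold subunits Cnot1, Cnot2, Cnot3, Cnot4 and Cnot10 and the adaptors Tob1, Tob2, Btg1, Btg2 and Btg3 were read on every array through the probe sets that the platform annotation gives to exactly 1 of these 10 symbols. Such probe sets existed for 8 of the 10 genes, out of 18193 genes with a probe set of their own in the table. They numbered 29, with 17 for the scaffold subunits and 12 for the adaptors. The probe sets of Cnot1 also carry the symbol Gm6158, and that of Btg3 also carries Gm7334, so those genes have no members by this rule. Of the 29 probe sets, 24 (15 scaffold, 9 adaptor) passed a filter on dim signals and were tested.

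The study profiled GFP-positive elongating spermatids, the haploid germ cells whose nucleus condenses after meiosis. ICR mice labelled wildtype had their testes transduced at 5 weeks of age, and the cells were sorted from total germ cells 1 week later. Each of the 3 groups was transduced with a vector carrying GFP, which was pSilencer in the control, a hairpin named for Miwi in shMiwi and a hairpin named for Caf1 in shCaf1. Every group has 2 arrays labelled as biological replicates, all from adult animals in the labels' terms. Nothing in the sources used here says how many animals stand behind an array, so p-values measure only the spread between these samples. Miwi is Piwil1, a PIWI protein that binds piRNAs in the testis, and Caf1 was taken to be Cnot7, a catalytic deadenylase of CCR4-NOT.

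CCR4-NOT shortens the poly(A) tails of messenger RNAs in the cytoplasm, which represses their translation and starts their decay. Cnot1 is the scaffold on which the other subunits assemble. Cnot2 and Cnot3 dock on it together as the NOT module, Cnot10 binds its N-terminal part, and Cnot4 is a RING-type ubiquitin ligase that is only loosely attached in mammals. Tob and Btg proteins hold the catalytic subunits Cnot7 and Cnot8 through a shared domain, and the Tob proteins also contact the poly(A)-binding protein. Spermatids store and later remove much of their messenger RNA while transcription shuts down, and male mice without Cnot7 are sterile.

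The control arrays stood apart from the other 4, which touches every comparison with them. Signals were deposited on a scale with the same trimmed mean on each array. On that scale the hybridization controls, bacterial transcripts added in fixed amounts to each sample, read 82.3 and 16.2 times their geometric mean over the 4 shRNA arrays on the control arrays, and 0.806 to 1.20 times it on the shRNA arrays. The hybridization scale, which divides each array by that factor, is therefore given beside the deposited scale. On it, 16 was added after the division, and dim control signals lie near or under 16, such as 8.0 and 6.5 for Cnot4 1437586_at. Differences and control spread of dim probe sets are compressed there, so their small adjusted p-values have that limit. Bright ones stay well above, such as Cnot2 1436980_x_at at 770 and 3553. Replicates differed by a median of 1.28 log2 units over all tested probe sets in control, against 0.185 in shCaf1 and 0.218 in shMiwi. Of 10 markers of elongating spermatids, such as the protamines, none was at 0 on any array, and their median percentile of signal was 31.6 on control 1, 99.5 on control 2 and 99.0 to 99.7 on the shRNA arrays. Control 1 thus lacked high signal for the labelled cell type. These markers made up 0.00860% and 2.07% of summed signal in control, 0.858% to 0.928% in shCaf1 and 0.591% to 0.648% in shMiwi. The 100 brightest probe sets held 52.6% and 29.5% of summed signal on the control arrays and 5.85% to 7.25% on the shRNA arrays. Shares of summed signal therefore also depend on those few probe sets. The round spermatid and pachytene spermatocyte lists, 7 genes each and none at 0, held 0.00357% to 0.0179% in control and 0.145% to 0.178% in the shRNA groups. Sertoli markers (7 genes, none at 0) held 0.00888% and 0.118% in control and 0.234% to 0.275% in the shRNA groups. Leydig markers (4 genes, none at 0) held 0.00597% and 0.0103%, then 0.0623% to 0.0799%. Lists of spermatogonia, peritubular myoid, endothelial, macrophage and erythrocyte markers held at most 0.0178% on any array. The part of these differences in the results against control was not tested, and fewer cells of a type cannot be told apart from less RNA per cell in such bulk samples.

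The targeted genes checked the labels only between the shRNA groups. Piwil1 read 1445360 and 292542 in control, 21881 and 22442 in shCaf1, and 9780 and 10392 in shMiwi, and was lower in shMiwi than in shCaf1 by 1.14 log2 units (log2 difference -1.14, SE 0.09, limma adjusted p = 0.00105). One of the 3 Cnot7 probe sets (1430519_a_at) read 388 and 353 in shCaf1 and 645 and 605 in shMiwi, a shMiwi minus shCaf1 difference of 0.73 (SE 0.16, adjusted p = 0.0320). The other 2 differed by 0.24 and 0.38 without passing (adjusted p = 0.307 and 0.264). With all 6 arrays in 1 model, 0 of all 27022 probe sets passed between the shRNA groups, so neither Piwil1 nor Cnot7 passed there. Against control, the Piwil1 difference of shMiwi was -6.01 (SE 0.95, adjusted p = 0.0320) on the deposited scale and -0.62 (adjusted p = 0.779) on the hybridization scale. For shCaf1 against control, 1 Cnot7 probe set (1423641_s_at) passed at -7.27 (SE 1.32, adjusted p = 0.0380), and it was at -2.28 (adjusted p = 0.247) on the hybridization scale. It read 2003570 and 188877 in control, 3633 and 4330 in shCaf1, and 4365 and 5012 in shMiwi. This Cnot7 probe set also passed as lower in shMiwi, at -7.03 (adjusted p = 0.0329). Piwil1 likewise passed as lower in shCaf1, at -4.87 (adjusted p = 0.0446). On the hybridization scale these were -1.65 (adjusted p = 0.442) and 0.12 (adjusted p = 0.953). The falls against control were thus not limited to the gene that each hairpin names.

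On the hybridization scale all 24 member differences from control were above 0, as were 26775 (shMiwi) and 26711 (shCaf1) of all 27022. There 5 members overlapped with control in each comparison, and no share over all probe sets was computed for that. On the deposited scale, members of 5 of the 8 genes were lower than control in each shRNA group and none was higher. In shMiwi, 8 of 24 probe sets passed as lower and 0 as higher (limma, adjusted p under 0.05), where 15.5% of all 27022 tested probe sets passed as lower and 9.07% as higher. At an unadjusted p under 0.05, 13 of the 24 members passed (54.2%), beside 42.6% of all. In shCaf1, 8 of 24 passed as lower and 0 as higher, beside 14.1% and 7.85% of all, and again 13 at an unadjusted p under 0.05, beside 41.4% of all. The genes were Cnot2, Cnot3, Cnot4, Tob1 and Tob2 in each case. These comparisons share their control arrays, and 6 probe sets were lower in both, with 2 more in shMiwi and 2 more in shCaf1. The median difference of members was -1.68 log2 units in both comparisons, against -0.20 (shMiwi) and -0.25 (shCaf1) over all tested probe sets. Members that do not overlap with control were lower for 13 and higher for 4 of 24 in each comparison, where 40.3% and 30.6% of all were so in shMiwi and 40.9% and 30% in shCaf1.

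On the hybridization scale 17 members passed as higher in shMiwi, beside 90.2% of all probe sets, and 16 in shCaf1, beside 85.3%. The members' medians there were 2.84 and 2.20, below the 3.58 and 3.15 of all tested probe sets. Every fall below is therefore one of the deposited scale. After median centring, members called were 2 higher and 4 lower in shMiwi, beside 22.5% and 4.23% of all, and 3 higher and 3 lower in shCaf1, beside 20.1% and 2.86%, with member medians of -0.10 and -0.11. Of the 8 calls, 4 in shMiwi (Cnot2 1436980_x_at and 1456576_x_at, Cnot4 1436645_a_at, Tob2 1448667_x_at) and 3 in shCaf1 (the same without Cnot4) passed as lower in each of 8 other settings, which leave out the hybridization scale and single arrays. Without 1 array, the lone array of its group was taken to vary as the other group did, so the calls of such fits say little about the members. The member median was -1.59 without shMiwi 1 and -1.57 without shMiwi 2 in shMiwi, and -1.76 without shCaf1 1 and -1.56 without shCaf1 2 in shCaf1. Without control 1 it was -1.34 in shMiwi and -1.35 in shCaf1, and without control 2 it was -2.48 and -2.17. Over all probe sets the medians of these fits were -0.37 to -0.15.

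**Figure D1:**
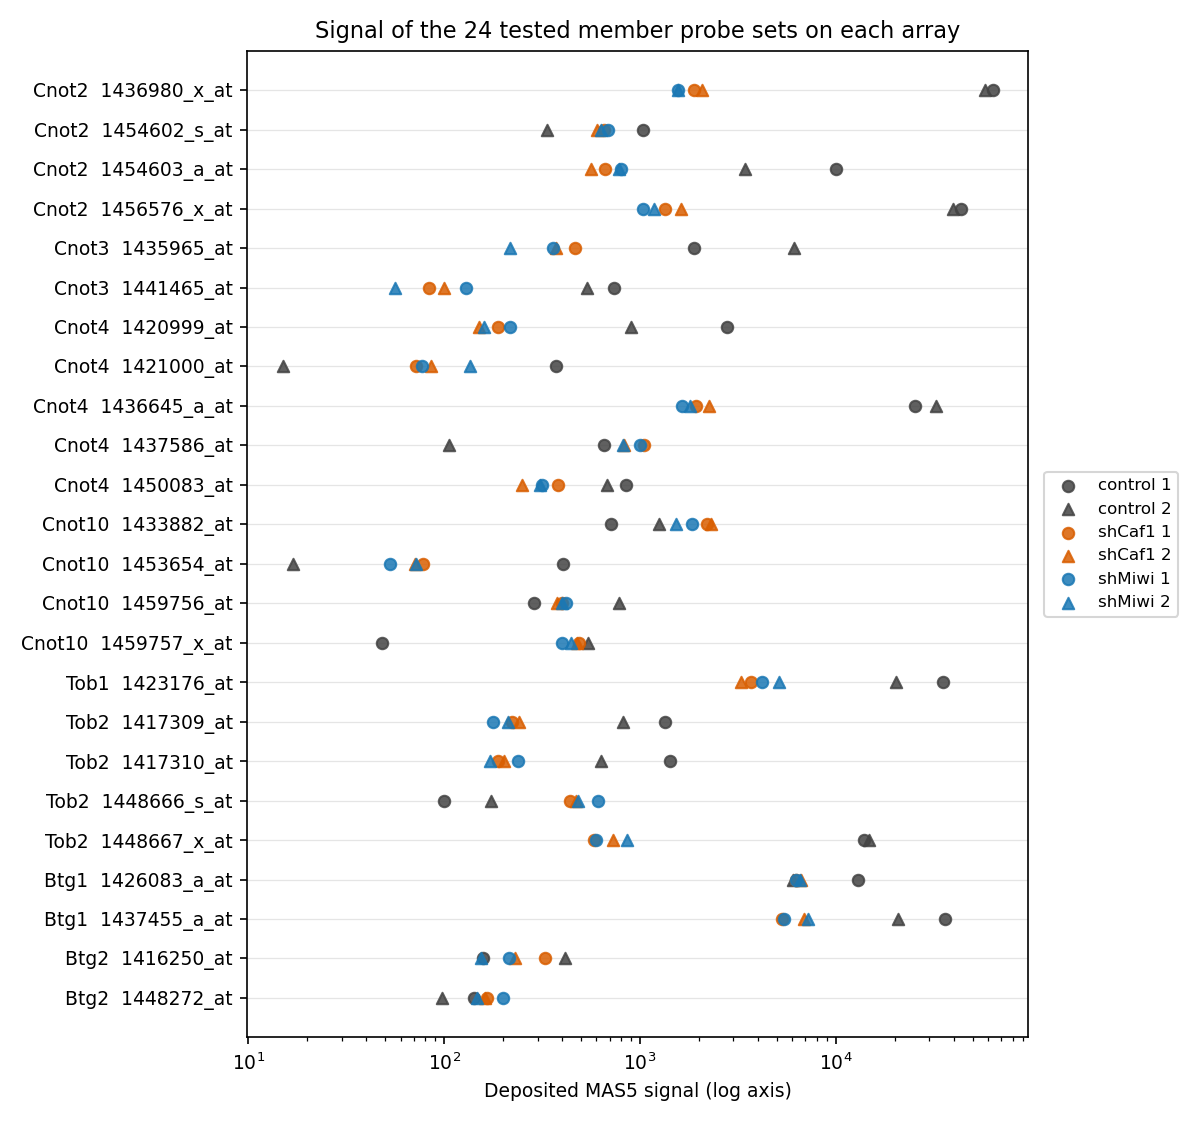
Deposited signal (log axis) of each of the 24 tested member probe sets on the 6 arrays, with 1 point per array (colour for the group, shape for the replicate). The shRNA points lie close together, whereas the control points are spread and lie far above the others for several Cnot2, Cnot4, Tob1 and Tob2 probe sets.

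Among the scaffold subunits, Cnot2 had the widest falls. Its probe set 1436980_x_at read 63383 and 57669 in control, 1880 and 2073 in shCaf1, and 1573 and 1568 in shMiwi. Both control arrays were far above the other 4, and the replicates of each group lay close together. The difference was -5.25 (SE 0.50, adjusted p = 0.0320) for shMiwi and -4.93 (SE 0.51, adjusted p = 0.0376) for shCaf1, but 0.12 and 0.05 on the hybridization scale, where the groups overlapped. By rank within an array, it was at the 99.7th percentile on both control arrays and between 88.8 and 91.4 on the shRNA arrays. A further Cnot2 probe set, 1456576_x_at, read 43666 and 39816, 1346 and 1616, and 1039 and 1180 in the same order of groups. It fell in both, with differences of -5.21 (SE 0.49, adjusted p = 0.0320) in shMiwi and -4.81 (SE 0.50, adjusted p = 0.0376) in shCaf1, with 0.15 and 0.16 on the hybridization scale.

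The other two tested Cnot2 probe sets are listed in the platform annotation under the same source sequence and differed from control by unlike amounts. Probe set 1454603_a_at read 9981 and 3431 in control, 667 and 563 in shCaf1, and 805 and 783 in shMiwi. Its control arrays were both higher than the rest, and it passed in shCaf1 (-3.22, SE 0.69, adjusted p = 0.0446; 1.64 when scaled on the hybridization controls) but not in shMiwi (-2.86, SE 0.70, adjusted p = 0.0504). Probe set 1454602_s_at read 1037 and 334, 659 and 602, and 686 and 633, so the control arrays lay on either side of the others. Its differences of 0.15 (adjusted p = 0.885) and 0.09 (adjusted p = 0.932) did not pass. The remaining 2 Cnot2 probe sets were not tested, and read 55 to 343 in control and 2 to 26 on the shRNA arrays.

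Cnot3, the partner of Cnot2 in the NOT module, was lower by both of its probe sets in shMiwi and by 1 in shCaf1. Probe set 1441465_at read 739 and 534 in control, 84 and 100 in shCaf1, and 130 and 56 in shMiwi. The groups did not overlap with control, with differences of -2.65 (SE 0.61, adjusted p = 0.0446) in shMiwi and -2.58 (SE 0.49, adjusted p = 0.0393) in shCaf1. On the hybridization scale it was higher in both instead, by 1.71 (adjusted p = 0.00529) and 1.46 (adjusted p = 0.0140). Probe set 1435965_at read 1879 and 6153, 465 and 371, and 361 and 216, and passed in shMiwi (-3.53, SE 0.78, adjusted p = 0.0416; 1.44 when scaled on the hybridization controls) but not in shCaf1 (-2.99, SE 0.74, adjusted p = 0.0553).

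Cnot4, the ubiquitin ligase, had probe sets both above and below control, and only falls passed. Probe set 1436645_a_at read 25273 and 32426 in control, 1935 and 2265 in shCaf1, and 1649 and 1809 in shMiwi. It fell in both, with differences of -4.04 (SE 0.51, adjusted p = 0.0320) in shMiwi and -3.76 (SE 0.51, adjusted p = 0.0376) in shCaf1, with 1.31 and 1.19 on the hybridization scale. Probe set 1420999_at read 2793 and 896, 189 and 151, and 216 and 159. It passed in shCaf1 (-3.11, SE 0.72, adjusted p = 0.0492; 1.45 when scaled on the hybridization controls) and not in shMiwi (-2.99, SE 0.73, adjusted p = 0.0504). By contrast, 1437586_at read 659 and 106 in control, and 1055, 826, 998 and 818 on the shRNA arrays. Both control arrays were below the others, and its differences of 1.68 and 1.73 did not pass (adjusted p = 0.252 and 0.249). Probe set 1450083_at read 848 and 678, 383 and 251, and 317 and 310, and did not pass (-1.23 and -1.25, adjusted p = 0.129 and 0.140). For 1421000_at the control arrays were at 375 and 15, which span all 4 shRNA values of 72 to 135.

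Cnot10, which binds the N-terminal part of the scaffold, had no probe set that passed against control. Its brightest, 1433882_at, read 708 and 1254 in control, 2191 and 2294 in shCaf1, and 1843 and 1536 in shMiwi. The control arrays were the lowest 2, with differences of 0.82 (adjusted p = 0.315) and 1.24 (adjusted p = 0.155). The 3 others overlapped with control in each comparison, with differences from -0.59 to 1.21 in shMiwi and from -0.37 to 1.40 in shCaf1. On control arrays they were 17 to 781, a wider span than the 53 to 486 of the shRNA arrays. Over the 15 tested scaffold probe sets the median difference was -1.23 in shMiwi and -1.25 in shCaf1, with 5 and 6 lower and 0 higher in each.

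Of the Cnot1 probe sets that also carry Gm6158, the bright one (1434251_at) read 864.1 and 1772 in control, 9445.5 and 10379.6 in shCaf1, and 9979.5 and 9457.6 in shMiwi. It was above control on every shRNA array, but its signal cannot be assigned to Cnot1 alone and it was counted among no members.

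**Figure D2:**
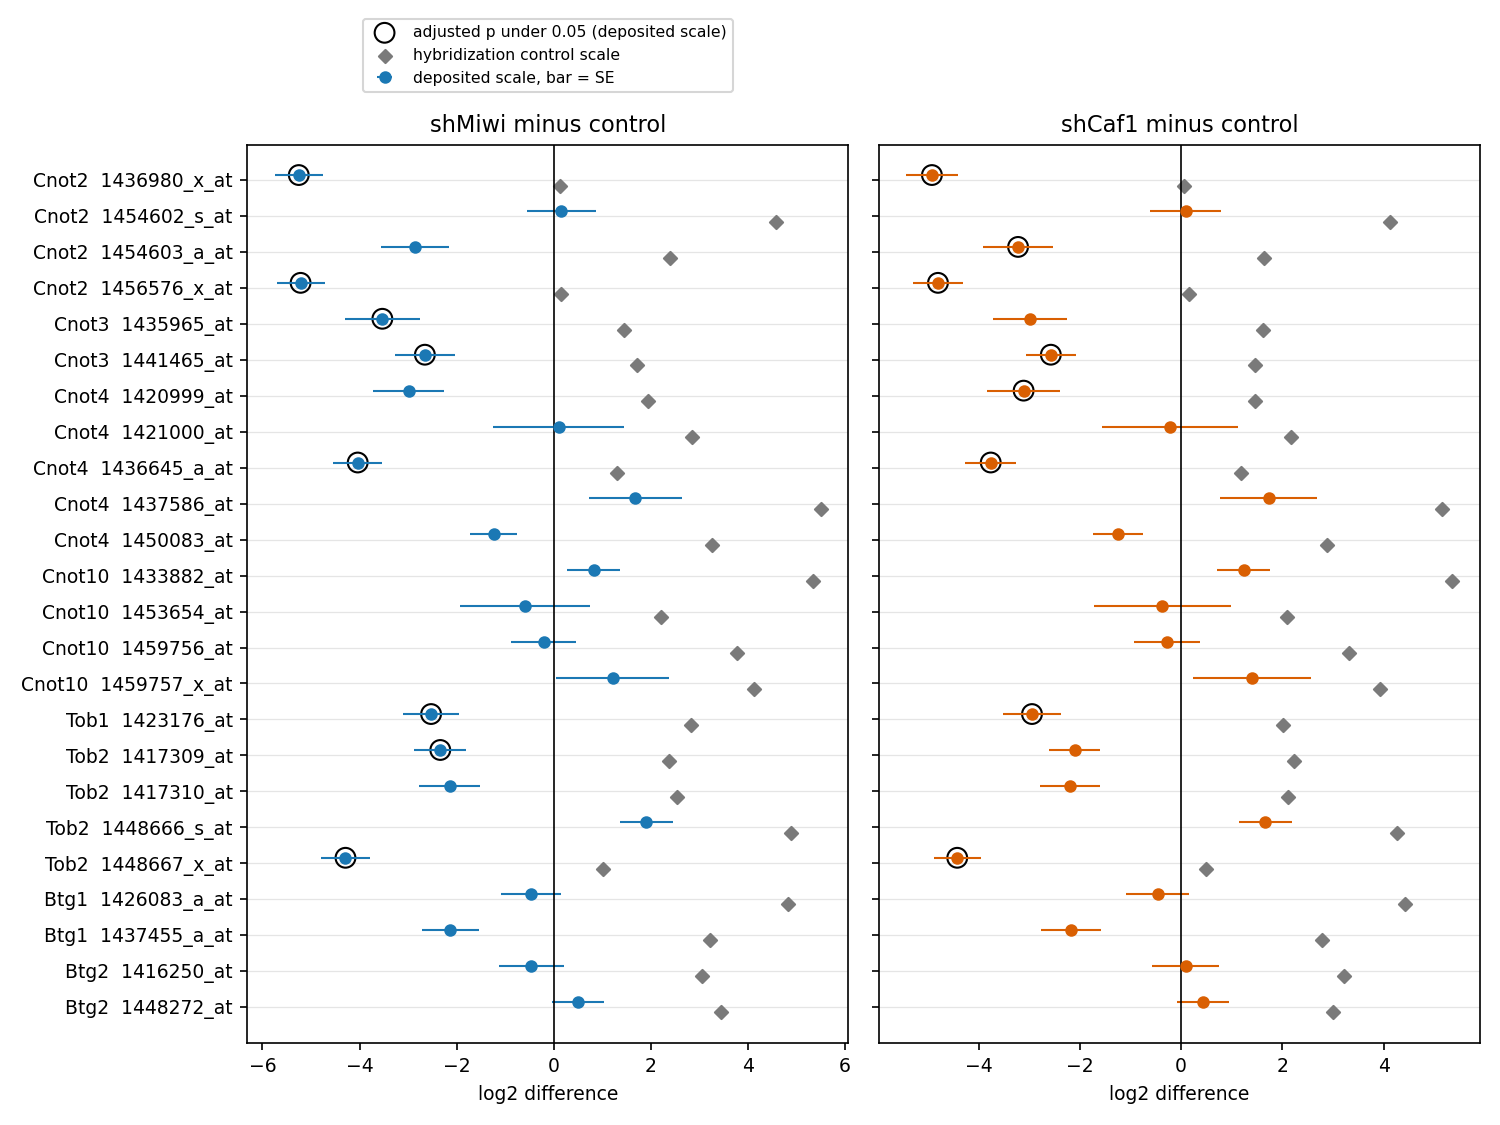
Log2 difference from control of each tested member probe set in shMiwi and shCaf1, on the deposited scale (circles with bars of 1 SE, ringed where the adjusted p was under 0.05) and on the hybridization scale (diamonds). On the deposited scale 17 of 24 differences are below 0 in each comparison, and on the hybridization scale all 24 are above 0. Of all 27022 tested probe sets, 12631 (shMiwi) and 12435 (shCaf1) are above 0 on the deposited scale, and 26775 and 26711 on the hybridization scale.

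The promoters of the scaffold and adaptor genes were searched for 1 motif, as several of the genes were lower together on the deposited scale. In the 250 bases before each start site (RefSeq, GRCm38.p6), TGACG, the core of the cAMP response element, was searched on both strands. CREM, a factor that binds this element, drives many genes of haploid spermatids. The 4 genes that held the core are shown, 5′ to 3′ along the gene, with capitals for the core or, in Btg2, for the full palindrome TGACGTCA that contains it on both strands.
Cnot3, chr7:3645019-3645268, plus strand: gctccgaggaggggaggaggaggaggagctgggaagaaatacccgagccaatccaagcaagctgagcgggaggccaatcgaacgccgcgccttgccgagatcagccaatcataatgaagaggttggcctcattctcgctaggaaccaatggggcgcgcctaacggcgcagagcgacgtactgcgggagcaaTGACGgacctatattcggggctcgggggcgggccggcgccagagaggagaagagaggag
Tob1, chr11:94211204-94211453, plus strand: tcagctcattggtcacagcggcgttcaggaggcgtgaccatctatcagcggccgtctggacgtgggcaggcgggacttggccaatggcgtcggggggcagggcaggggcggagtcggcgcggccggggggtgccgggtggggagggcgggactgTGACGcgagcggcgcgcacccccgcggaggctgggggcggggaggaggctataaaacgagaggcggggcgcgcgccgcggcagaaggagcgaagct
Btg1, chr10:96616751-96617000, plus strand: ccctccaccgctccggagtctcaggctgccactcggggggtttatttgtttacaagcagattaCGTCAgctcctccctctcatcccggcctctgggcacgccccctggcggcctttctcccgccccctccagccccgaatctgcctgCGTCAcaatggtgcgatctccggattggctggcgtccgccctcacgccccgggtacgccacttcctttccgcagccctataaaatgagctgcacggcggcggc
Btg2, chr1:134079156-134079405, minus strand: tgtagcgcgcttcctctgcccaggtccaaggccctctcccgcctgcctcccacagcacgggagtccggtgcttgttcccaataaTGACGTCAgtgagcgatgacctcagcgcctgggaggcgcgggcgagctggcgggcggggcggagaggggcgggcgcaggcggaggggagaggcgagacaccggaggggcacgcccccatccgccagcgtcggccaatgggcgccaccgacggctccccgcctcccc

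The core stood 59 bases before the start in Cnot3, 96 in Tob1, 187 and 103 (opposite strand, as CGTCA) in Btg1, and 166 in Btg2. It was found in 4 of the 11 windows of the 9 listed genes in the promoter table, against 17.8% of all 32851 windows of that length, and the full palindrome in 1 of the 11, against 1.55%. Of these 4 genes, Cnot3 and Tob1 passed as lower than control and Btg1 and Btg2 did not pass. Cnot2, Cnot4 and Tob2, which also passed as lower, held no core in their windows. A match describes these letters only and is no measurement of binding.

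Tob1, which couples the deadenylase to the poly(A)-binding protein, passed as lower in both shRNA groups as deposited, a call that other settings ended. Its probe set 1423176_at read 35515 and 20284 in control, 3672 and 3268 in shCaf1, and 4222 and 5110 in shMiwi. No shRNA array came near either control array, with differences of -2.53 (SE 0.58, adjusted p = 0.0439) in shMiwi and -2.95 (SE 0.57, adjusted p = 0.0398) in shCaf1. On the hybridization scale these were 2.83 and 2.01, and neither passed (adjusted p = 0.117 and 0.207). Without the filter the adjusted p was 0.0583 and 0.0511, after quantile normalization 0.0602 and 0.0518, and after median centring 0.229 and 0.119. By rank it went from the 99.5th and 99.1st percentiles in control to between 94.4 and 96.7. A dim Tob1 probe set (1440844_at) was not tested and read 352 and 206 in control against 10 to 47 elsewhere.

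Tob2, the close relative of Tob1, had 4 tested probe sets, all listed under 1 source sequence. Probe set 1448667_x_at read 13897 and 14756 in control, 580 and 732 in shCaf1, and 595 and 862 in shMiwi. It fell in both, with differences of -4.29 (SE 0.51, adjusted p = 0.0320) in shMiwi and -4.43 (SE 0.47, adjusted p = 0.0376) in shCaf1, with 1.02 and 0.50 on the hybridization scale. Probe set 1417309_at read 1336 and 817, 221 and 241, and 178 and 211, and passed in shMiwi (-2.34, SE 0.53, adjusted p = 0.0436; 2.37 when scaled on the hybridization controls) but not in shCaf1 (-2.10, SE 0.50, adjusted p = 0.0524). Both control arrays were above the other 4 here, as they were for 1417310_at, which read 1419 and 632, 188 and 202, and 239 and 172 and did not pass (-2.14 and -2.19, adjusted p = 0.0713 and 0.0651). The fourth, 1448666_s_at, ran the other way at 100 and 174 in control, 439 and 473 in shCaf1, and 611 and 482 in shMiwi. Its differences of 1.91 (SE 0.54, adjusted p = 0.0673) and 1.67 (SE 0.52, adjusted p = 0.0863) did not pass. A further Tob2 probe set, 1431776_at, was not tested and read 558 and 89 in control and 17 to 52 on the shRNA arrays.

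Btg1, an antiproliferative adaptor abundant in resting cells, had no probe set past the threshold. Probe set 1426083_a_at read 13062 and 6081 in control, 6285 and 6612 in shCaf1, and 6284 and 6596 in shMiwi. The shRNA arrays lay within the control pair, and all 4 were within a narrow band, with a difference from control of -0.47 in each comparison (adjusted p = 0.597 and 0.599). Probe set 1437455_a_at read 36282 and 20911, 5313 and 6923, and 5440 and 7259, and its differences of -2.13 and -2.18 did not pass (adjusted p = 0.0630 and 0.0660). The untested 1442018_at read 25 and 215 in control and 35 to 43 elsewhere.

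Btg2, the p53-responsive member of the family, was dim and did not pass by either probe set, both listed under 1 source sequence. Probe set 1416250_at read 158 and 415 in control, 327 and 231 in shCaf1, and 214 and 155 in shMiwi, and 1448272_at read 142 and 97, 165 and 162, and 201 and 147. The differences lay between -0.47 and 0.50, with adjusted p from 0.520 to 0.930. Btg3, read only through the probe set it shares with Gm7334 (1449007_at), was at 55746 and 18474.9 in control, 1862.5 and 1705.2 in shCaf1, and 2298.6 and 2119.7 in shMiwi, and was counted among no members. Over the 9 tested adaptor probe sets the median difference was -2.13 in shMiwi and -2.10 in shCaf1, with 3 and 2 lower and 0 higher in each.

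Probe sets of the same gene disagreed by up to 6.20 log2 units in their difference between shMiwi and control (Tob2), with 5.72 for Cnot4 and 5.41 for Cnot2. Ratios of signals within an array do not depend on its scaling, and pairs were chosen for them after their values were seen. For Cnot2, 1436980_x_at was 61.1 and 173 times 1454602_s_at on the control arrays, 2.85 and 3.44 times in shCaf1, and 2.29 and 2.48 times in shMiwi. For Tob2, 1448667_x_at was 139 and 84.6 times 1448666_s_at in control, 1.32 and 1.55 times in shCaf1, and 0.974 and 1.79 times in shMiwi. In both pairs the control ratios were far above those of the other 4 arrays, and no share over pairs chosen without their values was computed.

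Other pairs of Cnot2, Cnot4 and Btg1 probe sets also had higher ratios in control, among them a Cnot2 pair listed under 1 source sequence. Cnot2 1454603_a_at was 9.62 and 10.3 times 1454602_s_at in control and 0.935 to 1.24 times on the shRNA arrays. For Cnot4, 1436645_a_at was 38.4 and 307 times 1437586_at in control and 1.65 to 2.74 times elsewhere. For Btg1, 1437455_a_at was 2.78 and 3.44 times 1426083_a_at in control and 0.845 to 1.10 times elsewhere. The ratio of the 2 Cnot10 probe sets of 1 source sequence (1459757_x_at to 1459756_at) was lower in control, at 0.165 and 0.695, than the 0.949 to 1.26 of the shRNA arrays. For Btg2, 1448272_at was 0.897 and 0.234 times 1416250_at in control, which spans the shCaf1 values of 0.506 and 0.701 and lies below the shMiwi values of 0.940 and 0.951. Ratios between probe sets mix their different affinities, so only their change from array to array can be read.

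**Figure D3:**
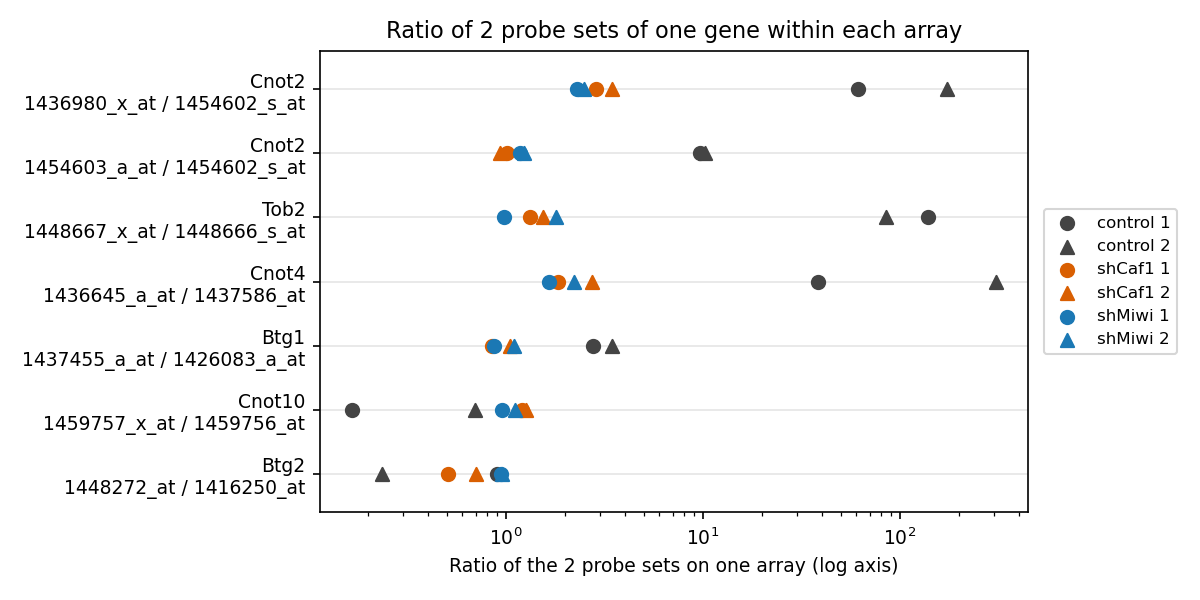
Ratio of the signals of pairs of probe sets of the same gene on each of the 6 arrays (log axis), with colour for the group and shape for the replicate. The ratios of the Cnot2, Cnot4 and Tob2 pairs are 9.62 or more on the control arrays and at most 3.44 on the shRNA arrays.

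The ending of a probe set name says how its probes map, with x marking probes that can also match other sequences. Of the 4 tested members ending in _x_at, 3 were lower in shMiwi with a median of -4.75, and over all 1747 such probe sets 15.6% were lower with a median of -0.02. The 2 ending in _s_at, whose probes match several transcripts, had a median of 1.03 with 0 lower, beside 8.48% lower and a median of 0.67 over all 1686. The 4 ending in _a_at had 1 lower and a median of -2.49, against 9.9% and 0.26 over all 3587. The 14 without such a mark had 4 lower and a median of -0.91, against 17% and -0.40 over all 20002. Scaled on the hybridization controls, the 3 _x_at members called lower overlapped with control, with differences of 0.12, 0.15 and 1.02.

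The direct comparison of the shRNA groups does not use the control arrays, and no member passed in its main fit. With limma 0 of 24 members passed, where 7.33% of all probe sets did. At an unadjusted p under 0.05, 6 members (25%) passed beside 24.4% of all. Without an intensity trend, and with all 6 arrays in 1 model, 0 members passed. Only 15 and 0 of all 27022 probe sets passed there, so these settings cannot tell members from the rest. With the replicate number as a block in the fit, 5 members passed (1 higher, 4 lower), beside 20.2% of all. The groups did not overlap with shMiwi lower for 8 members and higher for 3, beside 25.3% and 28.8% of all. The median difference was 0.01 over members and 0.02 over all.

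The member nearest to the threshold was Tob1, whose 4222 and 5110 in shMiwi were both above the 3672 and 3268 in shCaf1. The shMiwi minus shCaf1 difference was 0.42 (SE 0.13, 95% interval 0.12 to 0.72, adjusted p = 0.0885). Cnot10 1433882_at lay the other way at -0.41 (SE 0.13, 95% interval -0.72 to -0.11, adjusted p = 0.101). The 2 Cnot2 probe sets with the largest signals differed by -0.41 (95% interval -0.74 to -0.07, adjusted p = 0.128) and -0.33 (95% interval -0.61 to -0.04, adjusted p = 0.148), and Cnot2 1454603_a_at by 0.37 (95% interval 0.02 to 0.71, adjusted p = 0.182). The probe sets of Cnot2 therefore had no common direction.

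For Btg2 1416250_at the difference was -0.55 (95% interval -1.10 to -0.01, adjusted p = 0.200), and for Cnot3 1435965_at it was -0.54 (95% interval -1.10 to 0.01, adjusted p = 0.217). The narrowest interval was that of Btg1 1426083_a_at, with a difference of -0.002 (95% interval -0.24 to 0.23). For Btg1 1437455_a_at it was 0.05 (95% interval -0.33 to 0.43), and the 4 Tob2 probe sets lay between -0.23 and 0.24. The widest intervals belonged to Cnot3 1441465_at (-0.90 to 0.74), Cnot4 1421000_at (-0.38 to 1.04) and Cnot10 1453654_at (-0.90 to 0.47).

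On the hybridization scale, which shifts all probe sets by a median of 0.38, 3 of 24 members were higher in shMiwi than in shCaf1, beside 25.5% of all. They were Tob1 at 0.82 (adjusted p = 0.00211), Cnot2 1454603_a_at at 0.76 (adjusted p = 0.0114) and Tob2 1448666_s_at at 0.63 (adjusted p = 0.0360). On the deposited scale the median difference of members was -0.09 without shMiwi 1, and -0.03 to -0.01 without any other array. Over all probe sets the medians of these fits were -0.02 to 0.07.

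**Figure D4:**
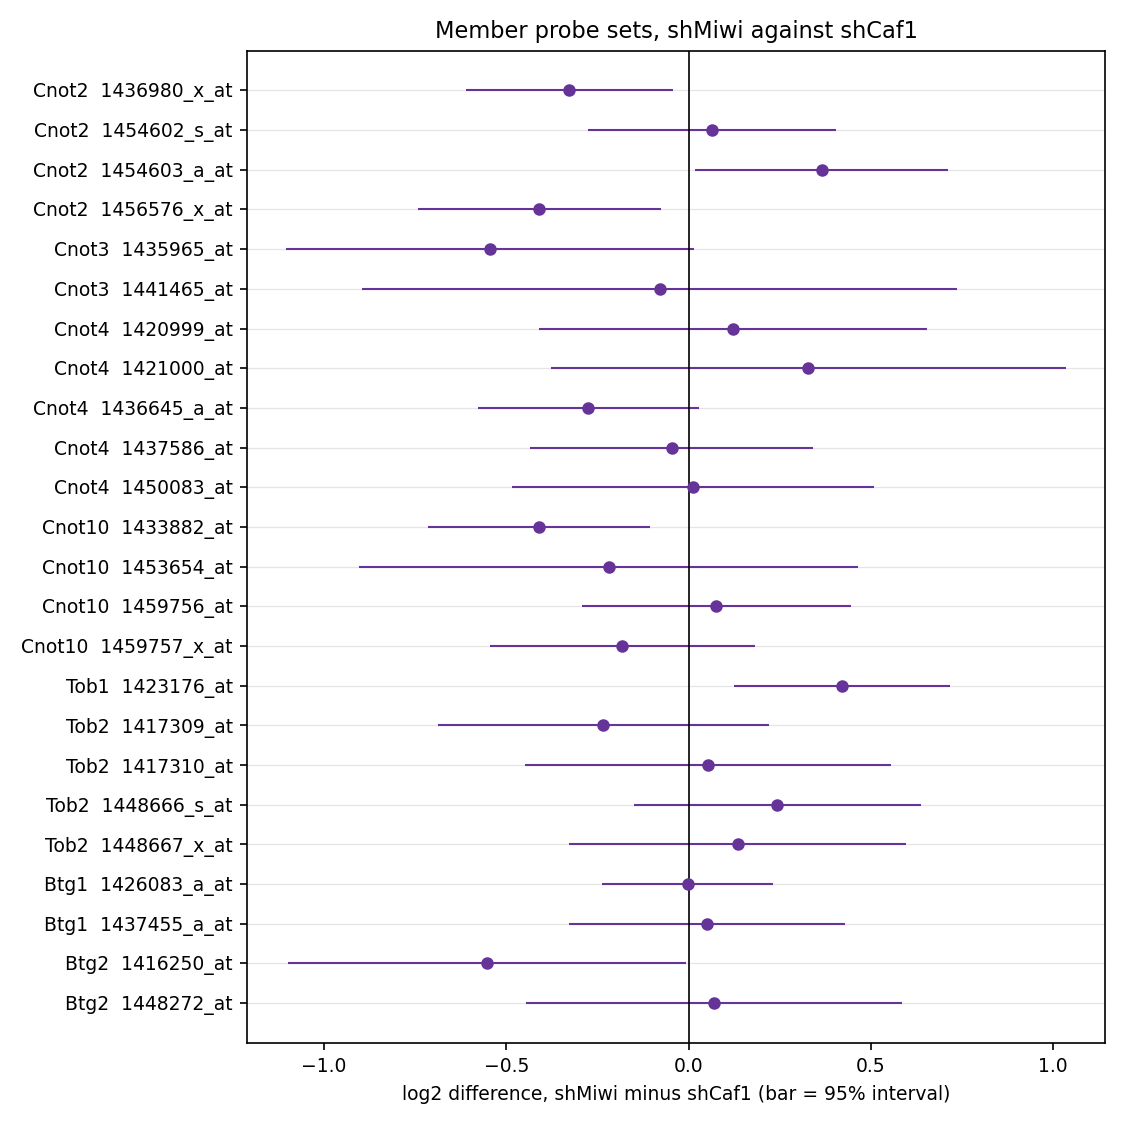
Log2 difference shMiwi minus shCaf1 of each tested member probe set on the deposited scale, with bars for the 95% confidence interval. The differences range from -0.55 to 0.42, and none passed the adjusted threshold.

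Other genes of the pathway were read through 2 lists chosen with earlier results of these data known. The list of catalytic and other subunits and deadenylases had 17 genes and 36 tested probe sets. Of these, 8 were higher and 3 lower than control in shMiwi, and 8 and 3 in shCaf1, with medians of 0.83 and 0.75. Cnot7, taken to be the target of shCaf1, is on this list, and its 1423641_s_at is among the 3 lower calls in each comparison. Over all tested probe sets 9.07% were higher and 15.5% lower in shMiwi, and 7.85% and 14.1% in shCaf1. The list of recruiting and partner proteins had 23 genes and 53 tested probe sets, of which 5 were higher and 2 lower in shMiwi and 4 and 4 in shCaf1, with medians of 0.17 and 0.04. On the hybridization scale 33 of 36 and 51 of 53 were higher in shMiwi, 31 and 49 in shCaf1, and 0 lower. Over these 89 probe sets the median was 0.19 in shMiwi and 0.20 in shCaf1. Leaving out each array in turn gave -0.44 to 0.29 in shMiwi and -0.56 to 0.26 in shCaf1.

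Cnot6, a catalytic subunit of the CCR4 type, read 59 and 50 in control, 1034 and 1083 in shCaf1, and 1152 and 1131 in shMiwi at 1426683_at. Its differences were 4.04 (SE 0.48, adjusted p = 0.0320) and 3.93 (SE 0.46, adjusted p = 0.0376), and 6.21 and 5.71 on the hybridization scale. Another Cnot6 probe set (1426684_at) read 1271 and 1226 in control and 191 to 263 elsewhere and differed by -2.22 (adjusted p = 0.0390) and -2.52 (adjusted p = 0.0378), with 2.53 and 1.85 on the hybridization scale. Cnot6 1426682_at was higher, by 2.82 (adjusted p = 0.0323) and 2.24 (adjusted p = 0.0410). At 1426685_a_at the differences of 2.30 and 2.19 did not pass (adjusted p = 0.0809 and 0.0920). Of the tested Cnot6 probe sets, only 1426684_at thus lay below control on the deposited scale.

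Samd4, an RNA-binding protein of the Smaug family that recruits the complex, read 1777 and 2271 in control and 106 to 117 on the shRNA arrays at 1424594_at. It differed by -4.01 (SE 0.49, adjusted p = 0.0320) and -3.93 (SE 0.46, adjusted p = 0.0376), with 0.90 and 0.62 on the hybridization scale. A brighter Samd4 probe set, 1429449_at, read 247 and 2924 in control and 3499 to 5442 on the shRNA arrays, with differences of 2.20 and 2.58 that did not pass (adjusted p = 0.257 and 0.206). Samd4 1436356_at passed as lower in shCaf1 (-2.97, adjusted p = 0.0413) but not in shMiwi (-2.44, adjusted p = 0.0508). At 1454382_at the differences of -2.21 and -2.57 did not pass (adjusted p = 0.133 and 0.108). Of the tested Samd4 probe sets, only 1429449_at thus lay above control on the deposited scale. Lsm14a, a protein of processing bodies, read 56 and 15 in control and 946 and 1128 in shMiwi at 1428437_at, higher by 4.47 (SE 0.63, adjusted p = 0.0320). In shCaf1 this probe set read 617 and 718, higher by 3.85 (SE 0.63, adjusted p = 0.0376). In shMiwi its 1428438_s_at was higher too, by 3.01 (adjusted p = 0.0450), whereas 1428436_at differed by -0.83 and did not pass (adjusted p = 0.439). In shCaf1 these differed by 2.38 and -0.85, and neither passed (adjusted p = 0.0728 and 0.420). Pnldc1, the exonuclease that trims piRNA 3′ ends, read 94 and 117 in control and 886 and 886 in shCaf1, higher by 2.90 (SE 0.46, adjusted p = 0.0376). In shMiwi it read 796 and 739, higher by 2.69 (SE 0.49, adjusted p = 0.0329).

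Between the shRNA groups, 2 of the 36 and 7 of the 53 pathway probe sets were higher in shMiwi, and 0 and 1 lower, beside 3.81% and 3.52% of all. These calls are those of the main fit. Without an intensity trend, and with all 6 arrays in 1 model, 0 of these 89 probe sets passed, beside 15 and 0 of all. The 2 higher of the 36 were Cnot6 1426682_at and Cnot7 1430519_a_at, and the latter had already served to check the labels. The lower one was 1445868_at of Cpeb3, a cytoplasmic polyadenylation element binding protein, at 1032 and 690 in shMiwi and 1843 and 2055 in shCaf1 (-1.19, SE 0.19, adjusted p = 0.0119). The other Cpeb3 probe sets differed by 0.64 (1455372_at, adjusted p = 0.0918) and -0.04 (1437765_at, adjusted p = 0.945), so the gene had no common direction. Its relative Cpeb4 was higher at 1420618_at, with 3892 and 4151 against 2184 and 2540 (0.77, SE 0.12, adjusted p = 0.0127). Cpeb4 1420617_at was higher too (0.62, adjusted p = 0.0443), whereas 1449931_at was at -0.60 and did not pass (adjusted p = 0.0518). Zfp36l2, which binds AU-rich elements and recruits CCR4-NOT, was higher at 896 and 1033 against 503 and 524 (0.88, SE 0.15, adjusted p = 0.0150). The medians of the lists were 0.23 and 0.14, beside 0.01 for the scaffold and adaptor members, and the differences between these medians were not tested. The number of calls over both lists changed when single arrays were left out, as did that over all probe sets, so such counts say little about the lists. The median over both lists was 0.15, and 0.12 to 0.18 with each array left out in turn.

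The genes with the pattern most like that of the scaffold and the adaptor probe set with the highest mean signal on the 4 shRNA arrays were found by Pearson's r of log2 signal over the 6 arrays, as a description. Cnot10 1433882_at ran closest to Sec63 (r = 0.999), Gpn1 (0.998) and Exosc8 (0.997). Each of these was lowest on control 1 and highest on the shCaf1 arrays. Btg1 1426083_a_at ran closest to Ube2d-ps, Tut4 and Hnrnpdl (r = 0.999 for each), of which each was highest on control 1, with 971, 768 and 6009 there and 56, 66 and 1546 on control 2. These coefficients rest largely on the control arrays, which all probe sets share.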

How the data were processed

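Biotin-labelled cRNA from total RNA of the sorted cells was read on mouse 3' expression arrays from Affymetrix, as the labels' protocols give it. The authors' deposited intensities are linear MAS5 signals, per the submitters' processing notes, and the values show a 2% trimmed mean of 500 on each of the 6 arrays. Versions of MAS5 and a genome build are not given in the sources used here. Titles gave each array's group.

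To each signal 16 was added before log2, which understates changes of dim probe sets. After removal of 64 Affymetrix control probe sets, those with a mean log2 over all 6 arrays above the 40th percentile were kept, so a probe set bright only in control could pass. Of the 27022 kept, 23660 name 1 gene, 672 several and 2690 none.

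Each comparison was fitted with limma 3.58.1 (R 4.3.3; lmFit, eBayes with a trend) on the 4 arrays of its 2 groups, with Benjamini-Hochberg adjustment over all tested probe sets and a threshold of 0.05. The 4-array fit keeps the wide control spread out of the comparison of shRNA groups. Fits were run on simulated data with 1 spread per group, which checked only that an added difference was returned. Error rates under the spread of these arrays were not tested. Intervals are 95% and cover the spread between arrays; 2 arrays a group limit the precision. The hybridization scale used 18 control probe sets. Members, lists and tests were chosen with earlier results of these data known. The named genes are all members, Piwil1, Cnot7, the 3 pathway probe sets with the smallest p per comparison (further probe sets of the same genes were added after their values were seen), and the 3 most alike genes of 1 scaffold and 1 adaptor probe set.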

Additional observations from a re-analysis of the deposited data

How the results depend on the processing

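The direction against control depended on the scaling. For all probe sets, higher and lower calls in shMiwi were 2451 and 4181 as deposited, 2307 and 770 after quantile normalization, 6080 and 1142 after median centring and 24385 and 23 on the hybridization scale. In shCaf1 they were 2122 and 3819, 1754 and 407, 5425 and 773, and 23059 and 5. The median of all probe sets moved from -0.20 to 0.48, 1.38 and 3.58 in shMiwi and from -0.25 to 0.48, 1.32 and 3.15 in shCaf1. Members called in shMiwi were 5 after quantile normalization (3077 of all probe sets), 17 on the hybridization scale (24408) and 14 with all 6 arrays in 1 model (11687; 13 members lower, and Tob2 1448666_s_at higher). In shCaf1 they were 4 (2161), 16 (23064) and 14 (11205; 13 lower and the same one higher). Leaving out each array gave 0 to 20 members and 42 to 22424 probe sets in shMiwi, and 0 to 22 and 9 to 22784 in shCaf1. Between the shRNA groups the calls over all probe sets were 568 without a filter, 1302 after median centring, 7145 on the hybridization scale (3 members), 15 without a trend and 0 with all 6 arrays; leaving out each array gave 0 to 4 members and 276 to 3878 probe sets.

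The replicate numbers are shared in the labels. Replicate deviations correlated at 0.0606 (control and shCaf1), 0.00396 (control and shMiwi) and 0.181 (shCaf1 and shMiwi). Whether arrays of the same number share more than that number was not tested. The main fits leave the number out, and the calls between the shRNA groups depend on that choice. With the replicate block 8 members passed in shMiwi (7900 of all), without Tob1 (adjusted p = 0.0849) and Tob2 1417309_at (0.0615) and with Cnot2 1454603_a_at and Cnot4 1420999_at, 8 in shCaf1 (7315), without Tob1 (0.0543) and with Cnot3 1435965_at, and 5 between the shRNA groups (5458; 1 member higher, 4 lower).

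On the hybridization scale these log2 differences turned from below to above 0 in shMiwi against control: Cnot2 0.12, 2.39 and 0.15, Cnot3 1.44 and 1.71, Cnot4 1.94, 1.31 and 3.27, Cnot10 2.21 and 3.78, Tob1 2.83, Tob2 2.37, 2.54 and 1.02, Btg1 4.83 and 3.23, and Btg2 3.05. In shCaf1 against control they were Cnot2 0.051, 1.64 and 0.16, Cnot3 1.61 and 1.46, Cnot4 1.45, 2.18, 1.19 and 2.88, Cnot10 2.10 and 3.33, Tob1 2.01, Tob2 2.23, 2.12 and 0.50, and Btg1 4.43 and 2.78. Between the shRNA groups they were Cnot2 0.068, Cnot3 0.25, Cnot4 0.12 and 0.35, Cnot10 0.11 and 0.20, Tob2 0.14 and Btg1 0.40. Median centring turned Cnot4 (0.35), Cnot10 (0.99, 1.37), Btg1 (1.11) and Btg2 (1.12) in shMiwi, Cnot4 (1.34, 0.32), Cnot10 (1.19, 1.28) and Btg1 (1.10) in shCaf1, and Btg1 (0.013) between them. Quantile normalization turned Cnot10 (0.76, 0.43) and Btg2 (0.57) in shMiwi, Cnot4 (1.10) and Cnot10 (0.96, 0.45) in shCaf1, and Cnot2 (-0.011), Cnot4 (-0.057), Cnot10 (-0.014) and Btg1 (0.16) between them. Adding 64 turned Cnot4 1421000_at to -0.15 in shMiwi, and adding 1 turned it to 0.023 in shCaf1. None of the differences turned by a scaling other than the hybridization controls had passed as deposited.

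Leaving out each array turned differences with these ranges. In shMiwi against control they were -1.02 to 0.082 for Btg1 1426083_a_at, -1.12 to 0.19 for Btg2 1416250_at, -2.43 to 1.24, -0.90 to 0.49 and -0.35 to 2.78 for Cnot10, -0.64 to 0.95 for Cnot2 1454602_s_at and -1.72 to 1.93 for Cnot4 1421000_at. In shCaf1 they were, in that order, -1.02 to 0.084, -0.57 to 0.74, -2.21 to 1.46, -0.98 to 0.41, -0.17 to 2.96, -0.71 to 0.88 and -2.05 to 1.60. Between the shRNA groups they were -0.038 to 0.035 and -0.16 to 0.26 for Btg1, -0.14 to 0.28 for Btg2, -0.60 to 0.44 for Cnot3, -0.084 to 0.33, -0.020 to 0.68, -0.22 to 0.13 and -0.28 to 0.30 for Cnot4, and -0.17 to 0.28 and -0.13 to 0.40 for Tob2. The cause of these changes was not tested. With 2 arrays a group, and control arrays that differ by a median of 0.955 log2 units over the members, signals of dim members have little precision against control.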
